A study of Mus musculus with 6 samples.

Results

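The genes described here are Ddit3, which encodes the transcription factor CHOP, and 9 genes of the stress response to which it belongs: Atf4, Trib3, Asns, Chac1, Ddit4, Sesn2, Ppp1r15a, Atf5 and Slc7a11. They were taken by gene symbol, 10 of 19938 genes on the array, because Ddit3 was already known to be lower in p80HT B cells. The question was whether that fall went with other genes of the same response. All 10 were measured, each by a single probeset. RNA came from splenic B cells of 1-year-old mice bred on C57BL/6J x SJL/J, with 3 p80HT transgenic mice that had monoclonal immunoglobulin in serum set against 3 wild-type (WT) littermates. p80HT is a truncated human NF-κB2 found in lymphoma, and its transgene was driven by an H-2Kb promoter with an immunoglobulin μ enhancer, which is active in T as well as B lymphocytes. Cells were selected on magnetic beads with an antibody to B220, a surface protein of most mouse B cells, and each mouse gave 1 Affymetrix Mouse Gene 1.0 ST array.

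Cells that run short of amino acids or haem, hold unfolded protein in the endoplasmic reticulum or sense viral RNA switch on kinases that phosphorylate the translation factor eIF2α. Most protein synthesis then slows, while the mRNA of ATF4 is translated more. ATF4 in turn switches on genes for amino acid supply, for defence against oxidation and, under lasting stress, CHOP, which is known for promoting cell death. Plasma cells, which B cells become when they secrete antibody, load the endoplasmic reticulum heavily and express genes of the linked unfolded protein response. Much of the control of ATF4 lies in translation, which an array of mRNA does not read.

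All values are log2 probeset signals, which have no true zero, and differences are p80HT minus WT on that scale. A gene was said to rise or fall where it passed the study's own threshold in limma, a change of 1.5-fold or more together with an unadjusted p under 0.01. The study took its p from analysis of variance, so calls in limma are not the study's own. Of the 19938 genes, 243 rose and 193 fell (119 and 77 by ordinary analysis of variance). After median centring of the arrays, 183 rose and 342 fell in limma. The median difference of all genes was -0.02, and -0.12 after that centring. At a Benjamini-Hochberg adjusted p under 0.05 in limma, 10 were higher and 1 lower (0.0502% and 0.00502%). The array of p80HT replicate 3 stood apart: over genes it correlated with the other 5 arrays at 0.914 to 0.925, while those correlated with each other at 0.981 or more. On the log2 scale, the summed signal of 5 salivary and lacrimal gland markers was 15.40 on that array, 9.55 and 9.73 on the other p80HT arrays, and 9.33 to 9.53 in WT. The summed markers of fibroblasts, of macrophages and of T cells were also highest on it. The macrophage marker Adgre1 alone was not, at 9.61 there against 10.10 and 10.31 on the other p80HT arrays. The 5 B cell markers measured were lowest on that array, with sums of 13.66 to 14.73 in p80HT against 14.77 to 14.97 in WT. The mean level of the B cell markers was 12.36, 12.27 and 11.27 in p80HT against 12.40, 12.62 and 12.53 in WT, and none of them passed the threshold. Differences of named genes are therefore given with and without p80HT replicate 3. In RNA from a cell population, fewer cells of a type and less RNA per cell cannot be told apart.

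Ddit3 was at 9.67, 9.46 and 8.58 in p80HT B cells, against 10.67, 10.75 and 10.85 in WT B cells. Every p80HT array lay below every WT array, and the spread within WT was narrow, 0.09 (SD, n = 3), while it was 0.58 in p80HT. The mean difference was -1.52 with a standard error of 0.34, which is 2.87-fold lower and the 19th lowest difference of all 19938 genes. Without p80HT replicate 3 the difference was -1.19, or 2.29-fold lower. These are the values for which the gene was chosen, so they are a description and no p is given for them. The T cell markers, whose 7 measured genes had sums of 12.40 to 14.08 in p80HT against 11.35 to 11.73 in WT, also separated the groups, and the part of such cells in the Ddit3 signal was not tested.

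The other members had no common direction. Of the 10 genes, 5 had a lower mean in p80HT and 5 a higher one. The median difference of the 9 genes beside Ddit3 was 0.02, against -0.02 over all genes, and without p80HT replicate 3 it was 0.03 against 0.04. By description only, Ddit3 was past the study's threshold in limma as lower, no member was past it as higher and 9 were not past it. Over all genes, 0.968% fell and 1.22% rose. By ordinary analysis of variance, the kind of test the study used, Ddit3 was not past it, where 77 of all 19938 genes fell. In 3 members all p80HT arrays lay below all WT arrays (Ddit3, Ppp1r15a and Atf4), in 1 they lay above (Asns), and in 6 the groups overlapped. Over all genes, 11.9% lay wholly below and 8.86% wholly above. Since the list was drawn up with results of this comparison known, these counts describe the genes and nothing more is read from them.

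**Figure D1:**
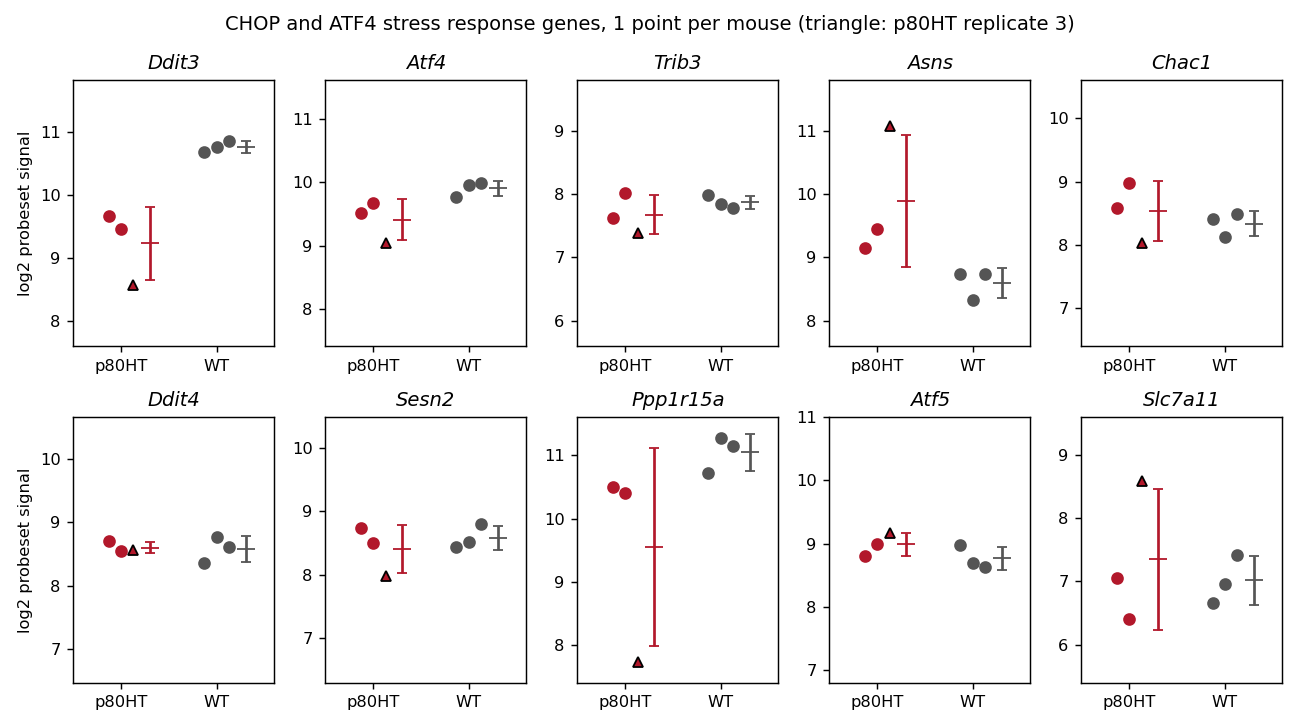
Log2 probeset signal (vertical axis, the same height of scale in every panel) of the 10 genes in p80HT (red) and WT (grey) B cells, 1 point per mouse, with the group mean and SD beside the points (n = 3 each) and p80HT replicate 3 as a triangle. Ddit3, Ppp1r15a and Atf4 lie lower and Asns higher on all 3 p80HT arrays, while the groups overlap for the other 6 genes.

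The member closest to Ddit3 in the size of its mean difference was Ppp1r15a, which encodes GADD34, the subunit that directs phosphatase 1 to eIF2α and so ends the response. It was at 10.50, 10.40 and 7.74 in p80HT against 10.72, 11.27 and 11.14 in WT. p80HT replicate 3 was far below the other 5 arrays, and the gap between the groups on those was small. The difference was -1.50 with a standard error of 0.92, and -0.60 without p80HT replicate 3.

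Atf4, the transcription factor at the centre of the response, was at 9.51, 9.67 and 9.04 in p80HT against 9.77, 9.95 and 9.99 in WT. All p80HT arrays were lower, by a small step. The difference was -0.50 with a standard error of 0.20, and -0.31 without p80HT replicate 3. Atf5, a related factor that CHOP and ATF4 are known to induce, had overlapping groups, 8.80 to 9.17 in p80HT against 8.63 to 8.97 in WT, with a difference of 0.22, and of 0.13 without p80HT replicate 3.

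Asns lay in the other direction. It encodes asparagine synthetase, a classical target of ATF4 in amino acid shortage, and was at 9.14, 9.45 and 11.08 in p80HT against 8.73, 8.32 and 8.73 in WT. Each p80HT array was above each WT array, with p80HT replicate 3 far above the rest. The difference was 1.30 with a standard error of 0.62. Without that array, on which the gland markers were also high, it was 0.70, or 1.63-fold higher. Slc7a11, the cystine transporter that feeds glutathione synthesis, was likewise highest on p80HT replicate 3, at 7.05, 6.41 and 8.58 in p80HT against 6.66, 6.96 and 7.42 in WT. Its groups overlapped, and the sign of the difference turned with that array, 0.33 with it and -0.28 without it.

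Targets that lie downstream of ATF4 and CHOP together showed no common direction. Trib3, a pseudokinase that CHOP induces and that restrains ATF4 and AKT, was at 7.62, 8.01 and 7.39 in p80HT against 7.98, 7.84 and 7.78 in WT. Chac1, which degrades glutathione, was at 8.59, 8.98 and 8.03 in p80HT against 8.41, 8.12 and 8.48 in WT. Both sets of values overlapped between the groups, with differences of -0.19 for Trib3 and 0.19 for Chac1, and of -0.05 and 0.45 without p80HT replicate 3. The mTORC1 inhibitors of the response, Ddit4 (REDD1) and Sesn2 (sestrin 2), differed by 0.02 and -0.18, with standard errors of 0.13 and 0.25, and by 0.04 and 0.03 without p80HT replicate 3. Ddit4 ranged over 8.54 to 8.70 in p80HT and 8.36 to 8.77 in WT, the narrowest p80HT range among the members. Sesn2 ranged over 7.98 to 8.73 in p80HT and 8.44 to 8.80 in WT.

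p80HT replicate 3 held the lowest of the 6 values for 6 members and the highest for 3. Without it, 2 members (Ddit3 and Ppp1r15a) were past the study's threshold as lower and 1 (Asns) as higher, where 1.45% of all genes fell and 2.01% rose. These counts too are a description, since the members were chosen with this comparison known.

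**Figure D2:**
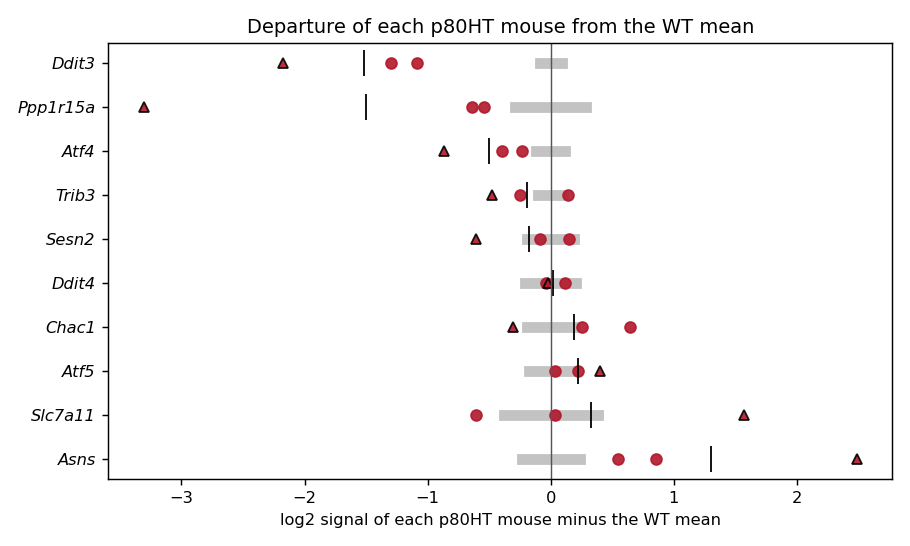
Departure of each p80HT mouse from the WT mean (horizontal axis, log2) for the 10 genes, with the mean departure as a black tick, the WT SD as a grey bar and p80HT replicate 3 as a triangle. Ddit3 is the 1 gene for which the departures of p80HT replicates 1 and 2 exceed 1, at -1.09 and -1.30.

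Promoter sequence was examined for the element through which ATF4 and C/EBP factors act, since it is what ATF4 targets would share. The RefSeq table (GRCm38.p6) held 11 promoters for the 10 genes, Atf5 having 2, each from 250 bases before to 50 after the start. The C/EBP-ATF element was searched as TGATGNAA or its reverse complement TTNCATCA, the cAMP response element as TGACGTCA, which is its own complement, and the ER stress element as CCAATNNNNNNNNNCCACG on both strands. The first was found in 4 of the 11 promoters and in 3.97% of all 32851. These were Slc7a11, with a pair of matches, Chac1, Asns and Trib3. The second was found in Ppp1r15a and in 1.79% of all, and the third in none of the 11 and in 0.119% of all. The promoters below are of the 3 members with the largest mean differences and of Slc7a11, which has the pair of matches. They are written 5′ to 3′ on the strand of the gene, and capitals mark matches.
Ddit3, chr10:127290543-127290842 (+ strand): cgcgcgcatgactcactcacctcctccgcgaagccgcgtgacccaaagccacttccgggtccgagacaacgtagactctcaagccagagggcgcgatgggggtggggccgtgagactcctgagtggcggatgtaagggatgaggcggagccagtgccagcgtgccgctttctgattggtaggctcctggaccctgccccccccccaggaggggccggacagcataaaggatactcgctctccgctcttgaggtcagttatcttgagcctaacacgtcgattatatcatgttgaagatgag
Ppp1r15a, chr7:45526219-45526518 (- strand): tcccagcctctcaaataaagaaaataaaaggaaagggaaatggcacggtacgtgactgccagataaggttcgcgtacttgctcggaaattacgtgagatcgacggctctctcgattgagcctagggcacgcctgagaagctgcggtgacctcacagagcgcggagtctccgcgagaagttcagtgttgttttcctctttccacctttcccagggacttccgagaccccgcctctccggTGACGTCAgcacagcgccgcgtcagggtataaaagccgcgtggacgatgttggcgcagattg
Asns, chr6:7693160-7693459 (- strand): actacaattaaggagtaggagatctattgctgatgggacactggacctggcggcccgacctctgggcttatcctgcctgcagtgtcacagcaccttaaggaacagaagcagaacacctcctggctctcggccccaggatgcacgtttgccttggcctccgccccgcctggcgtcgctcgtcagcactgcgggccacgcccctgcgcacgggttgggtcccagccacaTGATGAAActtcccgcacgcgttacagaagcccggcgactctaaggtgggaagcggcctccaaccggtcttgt
Slc7a11, chr3:50443564-50443863 (- strand): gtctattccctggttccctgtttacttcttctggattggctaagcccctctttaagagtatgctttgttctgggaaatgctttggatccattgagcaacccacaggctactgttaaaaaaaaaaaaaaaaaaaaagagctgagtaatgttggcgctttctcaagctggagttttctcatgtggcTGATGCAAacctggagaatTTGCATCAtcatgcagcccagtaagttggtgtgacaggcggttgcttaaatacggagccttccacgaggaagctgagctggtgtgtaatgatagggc
The matches in Slc7a11 begin 66 and 47 bases before the start, that in Asns 23 bases before and the cAMP response element of Ppp1r15a 12 bases before. In Chac1 the match TTGCATCA begins 193 bases before the start, and in Trib3 the match TTACATCA lies 14 bases after it. No searched letters were found in this window of Ddit3. Sequence outside the window was not searched for any gene, so an element further from the start would be missed. Of the 4 genes with a C/EBP-ATF match, Asns was higher on all p80HT arrays and the groups overlapped for Slc7a11, Chac1 and Trib3. A match is a description of the letters and does not show binding.

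Beyond the members, 90 genes of the response and its neighbours were listed in 8 groups from pathway knowledge, with earlier results of these data known, and 85 were measured. Of these, 2 rose, 1 fell and 82 did not pass, where 1.22% of all genes rose and 0.968% fell. Their median difference was 0.07 against -0.02 over all genes, and -0.05 against 0.04 without p80HT replicate 3. None passed at an adjusted p under 0.05 in limma, where 9 of the 85 had an unadjusted p under 0.05 (8 by ordinary analysis of variance), beside 2042 of all 19938 genes (1914 by ordinary analysis of variance). Without p80HT replicate 3, 3 were past the study's threshold as higher (Slc6a9, Atf3 and Cebpe) and 0 as lower, where 2.01% of all genes rose and 1.45% fell, so that Slc6a9 was the 1 call shared with the fit of all arrays. In that fit of 5 arrays Slc6a9 and Aldh1l2 were higher and Eif2s2, Slc38a2, Bcl2l11 and Dnajb9 lower at that adjusted p in limma, 2 and 4 genes, where 2.56% of all genes were higher and 2.11% lower.

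Of 8 amino acid transporter genes, 1 rose, 1 fell and 6 did not pass, with a median of 0.13. Slc6a9, which encodes the glycine transporter GlyT1, was at 8.67, 8.81 and 9.34 in p80HT against 7.87, 7.72 and 7.87 in WT. No p80HT array came near the WT range, and Slc6a9 rose by 1.12 (standard error 0.21, limma adjusted p = 0.144), and by 0.92 without p80HT replicate 3 (adjusted p = 0.0016). Red cell precursors are known to import glycine by this carrier for haem synthesis, and the summed signal of 3 red cell precursor markers was 10.56 and 10.82 in p80HT replicates 1 and 2, lower in p80HT replicate 3, and 9.01 to 9.19 in WT, with no overlap. The markers were not alike: Alas2 and Slc4a1 were higher on all p80HT arrays, while the groups overlapped for Klf1. On p80HT replicate 3 Alas2 was the highest of the 6 arrays (9.03) and Klf1 the lowest (6.86). The part of red cell precursors in the rise of Slc6a9 was not tested. Slc38a2, a transporter of neutral amino acids that ATF4 induces, fell, at 12.27, 12.21 and 11.81 in p80HT against 12.61, 12.71 and 12.83 in WT (-0.62, standard error 0.16, limma adjusted p = 0.287). Leaving out p80HT replicate 2 (-0.68) or 3 (-0.48), or WT replicate 1 (-0.67), 2 (-0.62) or 3 (-0.57), ended this call.

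In amino acid and one-carbon synthesis, 10 of 11 genes did not pass and 1 rose. It was Aldh1l2, a mitochondrial enzyme of folate metabolism, at 7.29, 7.25 and 7.85 in p80HT against 6.91, 6.71 and 6.72 in WT (0.69, standard error 0.20, limma adjusted p = 0.321). This call was lost without any 1 array except p80HT replicate 2, with differences of 0.49 to 0.77 in those fits. The serine pathway enzyme genes did not pass. The 12 measured genes of the aminoacyl-tRNA synthetase list, which includes the tRNA exporter Xpot, gave no call, with a median of 0.07 and differences from -0.30 (Sars) to 0.32 (Wars, 0.07 without p80HT replicate 3). The median without that array, which was highest of the 6 for 9 of these genes, was -0.14. The 2 with the smallest p were Sars, the seryl enzyme (limma adjusted p = 0.56), and Gars, the glycyl enzyme (0.27, adjusted p = 0.639). Without p80HT replicate 3 their differences were -0.20 and 0.09.

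Upstream of ATF4, none of 16 genes for eIF2α kinases, the eIF2 and eIF2B complexes and their regulators passed. The smallest p belonged to the kinase genes Eif2ak4 (GCN2, the sensor of amino acid shortage; -0.40, limma adjusted p = 0.482, and -0.26 without p80HT replicate 3) and Eif2ak3 (PERK, the sensor in the endoplasmic reticulum; -0.89, adjusted p = 0.502). Eif2ak3 was at 10.92, 10.72 and 9.34 in p80HT against 11.04, 11.34 and 11.27 in WT. All p80HT values were lower, with the gap set mostly by p80HT replicate 3, and without it the difference was -0.40. Eif2s2, the β subunit of eIF2, differed by -0.13 and, without p80HT replicate 3, by -0.58 (adjusted p = 0.0172). It is named here after its values were seen, and whether its probeset reads this gene alone was not checked.

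Downstream of CHOP, none of 7 targets and death regulators passed. Bcl2l11, which encodes the death-promoting protein BIM and which CHOP is known to induce, was at 10.25, 9.89 and 10.04 in p80HT against 10.51, 10.66 and 10.75 in WT. Its groups did not overlap, but the difference of -0.58 (limma adjusted p = 0.28; -0.57 and 0.0429 without p80HT replicate 3) was just short of 1.5-fold. Bcl2l11 was past the study's threshold as lower after median centring (-0.67), without WT replicate 1 (-0.65) and without p80HT replicate 1 (-0.68), but under no other alternative. Ero1a, an oxidase of the endoplasmic reticulum and a CHOP target, differed by 0.32 (limma adjusted p = 0.528), and by 0.19 without p80HT replicate 3. Among the 5 C/EBP genes measured, whose proteins pair with CHOP, none passed with all arrays. Without p80HT replicate 3 Cebpe, a factor of granulocytes named here after its values were seen, passed at 0.62 (limma adjusted p = 0.0584), against an overlap at 0.26 with all arrays. The summed signal of neutrophil markers was 14.43, 13.94 and 10.83 in p80HT replicates 1, 2 and 3, and 12.12 to 14.17 in WT. Without p80HT replicate 3 the median difference of these markers was 1.03. The part of neutrophils in the Cebpe difference was not tested. Cebpa (0.80, limma adjusted p = 0.55), a factor of myeloid cells, was highest on p80HT replicate 3, at 8.94 against at most 7.42 on the other arrays, and Cebpd differed by 0.25 (adjusted p = 0.564). Without that array the differences were 0.29 and 0.23.

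The further stress regulators gave no call among 12 genes with all arrays. Gadd45a, a growth arrest gene, was at 9.01, 8.92 and 7.56 in p80HT against 9.44, 9.31 and 9.63 in WT (-0.96, limma adjusted p = 0.457), and the difference without p80HT replicate 3 was -0.49 (adjusted p = 0.0517). Hmox1, the haem oxygenase gene, differed by 0.37 (limma adjusted p = 0.542), and by 0.21 without that array. Atf3, a stress factor downstream of ATF4 that also answers immediate-early signals, is named after its values were seen, since its sign turned with 1 array: -0.51 with all arrays and 0.66 without p80HT replicate 3, where it passed. The other arms of the unfolded protein response gave no call. Of 14 genes of the ATF6 and IRE1 arms none passed, and the median was 0.04. Dnajb9, a co-chaperone induced by XBP1, was at 11.94, 11.83 and 11.01 in p80HT against 12.28, 12.43 and 12.57 in WT (-0.83, limma adjusted p = 0.352; -0.54 and 0.0336 without p80HT replicate 3). Edem1, a lectin that sends misfolded proteins to degradation, was above WT on all p80HT arrays (0.38, limma adjusted p = 0.38, and 0.37 without p80HT replicate 3). Of 5 plasma cell markers 1 rose, Prdm1, the gene of the plasma cell factor Blimp-1 (0.80, limma adjusted p = 0.181; 0.67 and 0.0114 without p80HT replicate 3), and 4 did not pass. Irf4 was lower on all p80HT arrays (-0.78, and -0.21 without p80HT replicate 3), both genes being named after their values were seen, and the summed signal of the 5, 13.17 to 13.61 in p80HT against 13.44 to 13.73 in WT, overlapped.

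**Figure D3:**
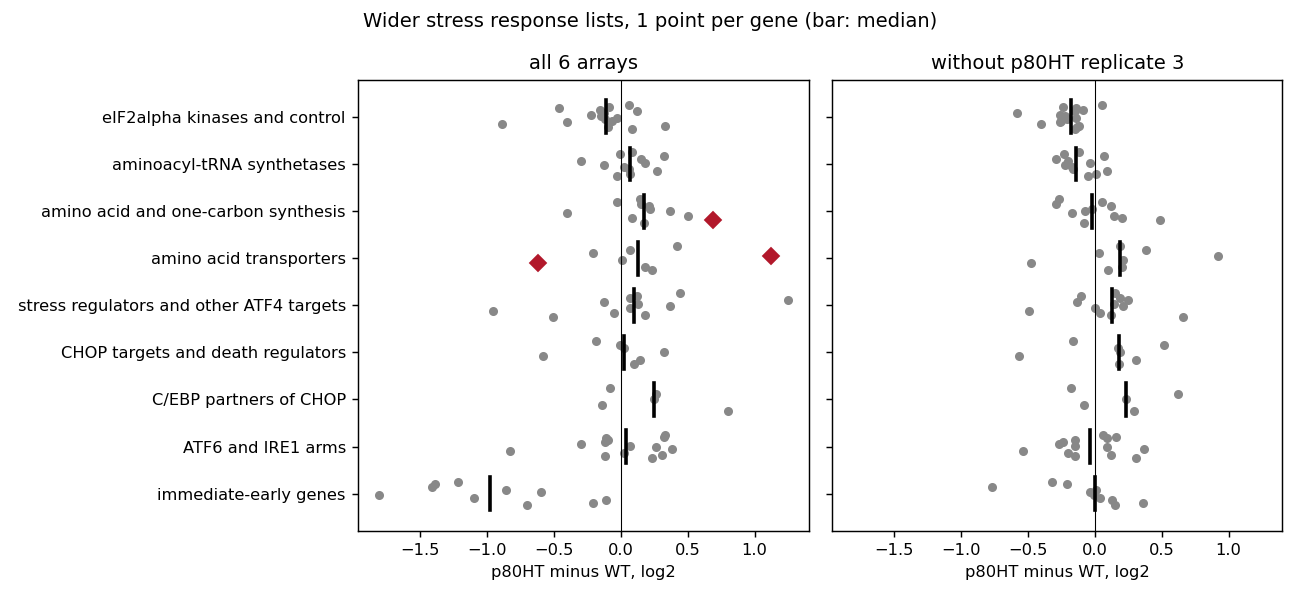
Difference of p80HT minus WT (horizontal axis, log2) for each gene of the 8 response lists and of the immediate-early genes, with the list median as a bar, for all 6 arrays (left) and without p80HT replicate 3 (right). Red diamonds in the left panel are the 3 response genes past the study's threshold, Slc6a9, Aldh1l2 and Slc38a2, and the immediate-early median moves to 0 when that array is left out.

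Immediate-early genes, which are transcribed within minutes of stimulation or of cell handling, were set beside Ddit3 and Ppp1r15a, since Ppp1r15a also answers such signals. All 10 were lowest on p80HT replicate 3, and their mean level was 11.87, 11.63 and 9.13 in p80HT against 11.71, 11.81 and 11.93 in WT. p80HT replicate 1 lay within the WT range and replicate 2 just under it. None of the 10 passed with all arrays, where the median was -0.98. Without p80HT replicate 3 the median was 0.00, and 1 of the 10, Junb, passed as lower, where 1.45% of all genes fell. Junb was at 10.67, 10.43 and 8.63 in p80HT against 11.07, 11.49 and 11.41 in WT. It had the smallest p (-1.41, limma adjusted p = 0.425) and was -0.77 without that array (adjusted p = 0.0167), and Zfp36, an RNA-binding regulator, had overlapping groups and differed by -1.22 (adjusted p = 0.592), and by -0.32 without that array. Ddit3 departed from its WT mean by -1.09 and -1.30 on p80HT replicates 1 and 2, and by -2.18 on replicate 3.

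The genes with the profile most like that of Ddit3 were found by the root mean square difference between profiles over the 6 arrays, each gene centred on its own mean. They were Thap6, a zinc finger gene (0.093), Tec, a tyrosine kinase of lymphocytes (0.118), Adamts6, a secreted protease (0.121), Hilpda, a protein of lipid droplets (0.124), and Snx29, a sorting nexin (0.133). The median over all genes was 0.811. Tec was at 10.02, 9.95 and 8.89 in p80HT against 10.84, 11.18 and 11.04 in WT. That it was lower on every p80HT array follows from picking genes by their likeness to Ddit3. No member was among the 5. The nearest members were Atf4 (0.543, rank 636 among all other genes) and Ppp1r15a (0.593, rank 1000), both well below that median. Asns was at 1.70 (rank 19707). All these profiles share the same 6 arrays.

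**Figure D4:**
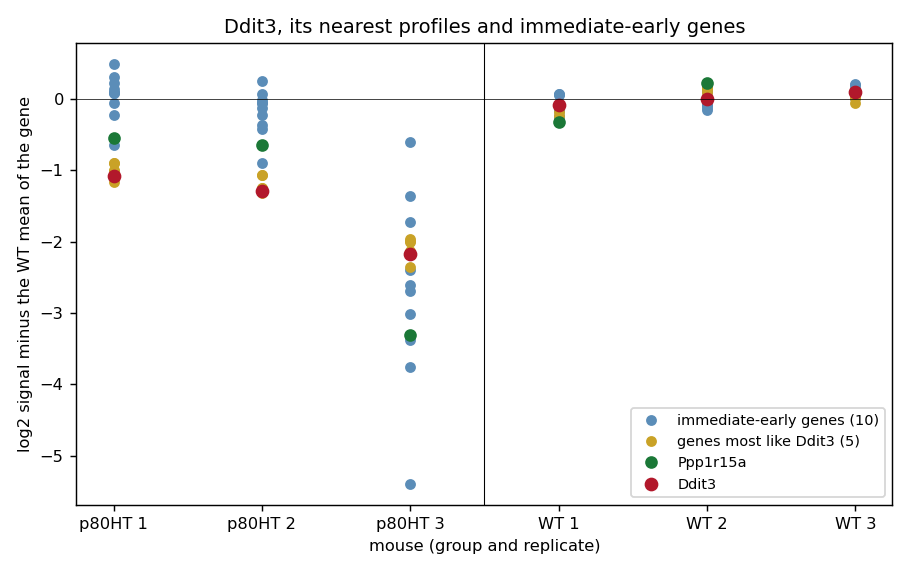
Log2 signal minus the WT mean of the same gene (vertical axis) in each of the 6 mice (horizontal axis) for Ddit3, Ppp1r15a, the 5 genes with the most similar profile and 10 immediate-early genes. Ddit3 is at -1.09 and -1.30 on p80HT replicates 1 and 2 and at -2.18 on p80HT replicate 3, where all 10 immediate-early genes have their lowest value.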

How the data were processed

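Splenic B cell RNA of 3 p80HT and 3 WT mice was measured on 1-colour Affymetrix arrays, 1 per mouse, whose number limits the precision. The authors normalized the arrays with RMA in Partek Genomics Suite and deposited log2 signals. The settings and the annotation release are not given in the sources used here. Array medians ran from 7.68 to 7.81. Of 28853 probesets, 21789 had exactly 1 gene symbol in the platform table, 1621 had several and 5443 none. Each of 19938 genes was read from its brightest single-symbol probeset, by the mean of the 6 arrays. No filter on dim genes was applied in the main comparison, so all 10 members entered it.

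The p80HT minus WT contrast was fitted on all genes by limma (version 3.58.1, R 4.3.3) with moderated 2-sided tests and no block, at the threshold of the methods and at a Benjamini-Hochberg adjusted p under 0.05. With 3 arrays a group the smallest exact permutation p is 0.1, and none is reported. Labels do not say how the mice relate beyond being littermates. The members and lists were chosen with earlier results of these data known, so no p is given for members and no set test was run. Named genes were all members, up to 4 genes past the threshold in each list or else the 2 with the smallest p, and the 5 profiles nearest to Ddit3. Summed marker signals are log2 of the sum of linear signals. The alternatives were leaving out each array, the replicate number as a block, ordinary analysis of variance, an intensity trend, quantile normalization, median centring, a filter at the 50th percentile of mean signal and the mean of a gene's probesets. The fit was tested on simulated data. Tables were made with Python 3.11.15 and pandas 2.3.3, figures with matplotlib 3.10.9.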

Additional observations from a re-analysis of the deposited data

How the results depend on the processing

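Ddit3 was lower in p80HT under all 13 alternatives, with differences from -1.74 to -1.19, a description of the values for which it was chosen. It was past the study's threshold under 12 of the 13, and not by ordinary analysis of variance. The median difference of the other 9 members lay between -0.09 and 0.08 under every alternative. The filter at the 50th percentile removed 2 of these 9, Trib3 and Slc7a11. The count of all genes past the threshold was 436, against 196 by ordinary analysis of variance and 11 at an adjusted p under 0.05. With 1 array left out it ran from 206 (without WT replicate 2) to 691 (without p80HT replicate 3), and it was 220 without WT replicate 3. The count in the 8 wider lists was 3, against 1 by ordinary analysis of variance, 1 after quantile normalization and 0 at an adjusted p under 0.05 in limma. With 1 array left out it ran from 1 (without WT replicate 2, and without WT replicate 3) to 4 (without p80HT replicate 1). Slc6a9 passed the study's threshold under every alternative fit. Bcl2l11 and Dnajb9, not past it in the main fit, passed as lower after median centring and without p80HT replicate 1. Bcl2l11 also passed without WT replicate 1, and Dnajb9 with an intensity trend. Deviations of same-numbered arrays from their group means correlated at 0.07, -0.24 and 0.07 over genes, and 2 of 6 arrays correlated best with their own number. With p80HT replicate 3 apart from the rest, these values cannot show whether the mice were paired by number. With the replicate number as a block, 567 genes and 1 gene of the wider lists passed, and Ddit3 was at -1.52. The number of arrays limits the precision.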
